A study of Homo sapiens with 6 samples.

Results

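Expression of 9 genes of the IL-6 receptor pathway was examined in A549 cells, an established line derived from a human lung adenocarcinoma, with and without the MIR21 gene. The genes were the receptor chains IL6R and IL6ST, the kinase JAK1, the transcription factors STAT2, STAT3, STAT5B and STAT6, and the inhibitors SOCS3 and PIAS3. They were taken by name, since STAT3 is a known activator of MIR21 transcription, in a choice made with earlier results of these data known. All 9 were among the 58174 genes listed and among the 16006 genes tested, those averaging 0.5 FPKM or more over the libraries (FPKM, fragments scaled to gene length and library size, a level that can be compared between genes). Parental A549 cells without an edit (Ctrl, 3 libraries) were compared with A549 cells carrying a deletion in the MIR21 locus made by CRISPR/Cas9 with paired guide RNAs (MIR21-KO, 3 libraries). Both were grown in the same serum-containing medium, without an added cytokine, and harvested 48 h after seeding. The MIR21-KO cells came from single-cell clones, whose number behind the 3 libraries is not given in the sources used here, so that clonal differences and the deletion cannot be told apart. No source states whether the 3 libraries of a group came from separate cultures, and p-values measure only the spread between these libraries.

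Cytokines of the IL-6 family bind a ligand-specific chain, such as IL6R for IL-6, which then pairs with the shared signal-transducing chain IL6ST (gp130). JAK1, bound to gp130, phosphorylates the receptor and STAT3, which enters the nucleus and activates its target genes. Among these targets are SOCS3, which blocks the receptor complex, and MIR21 itself, while PIAS3 binds active STAT3. STAT2 serves another receptor, that of type I interferons, where it joins IRF9 in the complex ISGF3. STAT6 acts mainly downstream of IL-4 and IL-13, and STAT5B downstream of growth hormone, prolactin and several cytokines.

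Because the deleted gene encodes a microRNA, the miR-21-5p sequence and its matches in the 3′ UTRs of the 9 genes are shown first. MicroRNAs repress mRNAs that pair with their seed, bases 2 to 8, given here in capitals. The mature sequence from RefSeq (GRCh38.p14, chr17:59841273-59841294, plus strand) is:
miR-21-5p: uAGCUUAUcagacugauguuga

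The longest annotated 3′ UTR of each gene was searched on the transcribed strand for the 8mer ATAAGCTA, the 7mers ATAAGCT and TAAGCTA, and the 6mer TAAGCT, each match counted once as its longest form. IL6R, IL6ST and STAT3 held at least one match of 7 bases or more, which 15.1% of the 11659 tested genes with an annotated 3′ UTR did. STAT6, STAT2 and PIAS3 held a single 6mer each, and JAK1, STAT5B and SOCS3 held no match. A match of any kind was present in 29.4% of those tested genes and an 8mer in 2.98%. The 8mer of IL6R, both 7mers of STAT3, the 7mer of IL6ST and the 6mer of STAT2 are printed with the bases around them and the match in capitals, 5′ to 3′ on the transcribed strand:
IL6R (GRCh38, chr1:154468119-154468126, plus strand): tccctttatttttcATAAGCTAatg
STAT3 (GRCh38, chr17:42313793-42313799, minus strand): ctcttcagtacataATAAGCTtaac
STAT3 (GRCh38, chr17:42313480-42313486, minus strand): ctataaggtggtttATAAGCTgctg
IL6ST (GRCh38, chr5:55937768-55937774, minus strand): aaaataacaaagttATAAGCTgcat
STAT2 (GRCh38, chr12:56342754-56342759, minus strand): cccctactctgccccTAAGCTggct

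These coordinates are those of the matched bases alone. In the 3′ UTR of STAT3, of 2421 bases, the matches start at positions 1946 and 2259 counted from the base after the stop codon. The IL6R 8mer starts at position 2739 of 4070, and the IL6ST 7mer at position 4992 of 7641. A match is a description of the sequence, not evidence that the site is used.

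The libraries held 10631667 to 14345209 reads in genes. MIR21 (ENSG00000284190, chr17:59841266-59841337) was listed at 0 in all 6 libraries, so this table of polyA RNA could not check the deletion. All 72 bases of MIR21 are shared with an exon of VMP1 on the same strand, and the reason for the 0 was not tested. Keratins of the epithelial line were abundant, with KRT18 at 335 to 688 FPKM, whereas EPCAM was low at 0.389 to 1.65 FPKM. Of the 6 epithelial markers CDH1, the adhesion protein E-cadherin, fell from 7.63 to 8.79 FPKM in Ctrl to 2.72 to 3.02 FPKM in MIR21-KO libraries (log2 fold change -1.48, limma FDR 0.000175). The 4 endothelial markers summed to at most 0.0856 FPKM. The 4 leukocyte markers considered summed to 3.72 to 4.51 FPKM in Ctrl and 3.5 to 5.25 FPKM in MIR21-KO libraries, of which CD14, a lipopolysaccharide co-receptor, made up most (3.19 to 5.1 FPKM, limma FDR 0.285) while CD3E was at 0. The 5 fibroblast markers summed to 5.33 to 5.82 and 4.83 to 7.1 FPKM, with the collagen gene COL1A1 at 3.28 to 4.51 FPKM (FDR 0.334) and COL1A2 at 0 in every library.

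Of 5 control genes usually taken as stable, 1 rose, 3 had an unadjusted p under 0.05, and their median log2 fold change was 0.46. The translation factor EEF2 was at 369, 366 and 366 FPKM in Ctrl and at 565, 560 and 494 FPKM in MIR21-KO libraries (log2 fold change 0.55, limma FDR 0.00519), while ACTB had a change of 0.20 (FDR 0.251). EEF2 was uncalled without Ctrl replicate 1, 2 or 3 or MIR21-KO replicate 2 (FDRs 0.0315, 0.0301, 0.0336 and 0.0365). The log2 fold change of EEF2 exceeded those of SOCS3 (0.36) and STAT6 (0.29). In a bulk sample, fewer cells expressing a gene and less RNA per cell cannot be told apart. The MIR21-KO libraries differed from each other more than the Ctrl libraries did: chi-square per degree of freedom was 7.70, 11.88 and 32.80 between MIR21-KO pairs against 2.69 to 5.30 between Ctrl pairs. Deviations followed base composition: genes under 45% GC were shifted by -0.08 in MIR21-KO replicate 1 and 0.10 in replicate 3, and genes of at least 55% GC by 0.16 and -0.19, as medians on the log2 scale.

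Of the 9 genes, 1 passed the threshold of the test (limma on log2(FPKM + 0.1), Benjamini-Hochberg FDR under 0.01 over all tested genes). This was STAT2, which rose. The share, 11.1%, was below the 16.0% of all tested genes called in either direction, made up of 7.66% that rose and 8.38% that fell upon deletion. At an FDR under 0.05, 5 of the 9 were called against 32.0% of all genes, and for 5 of the 9 the libraries of the groups did not overlap, against 48.1% of all genes. The median log2 fold change of the 9 genes was 0.13, compared with -0.017 over all tested genes.

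**Figure D1:**
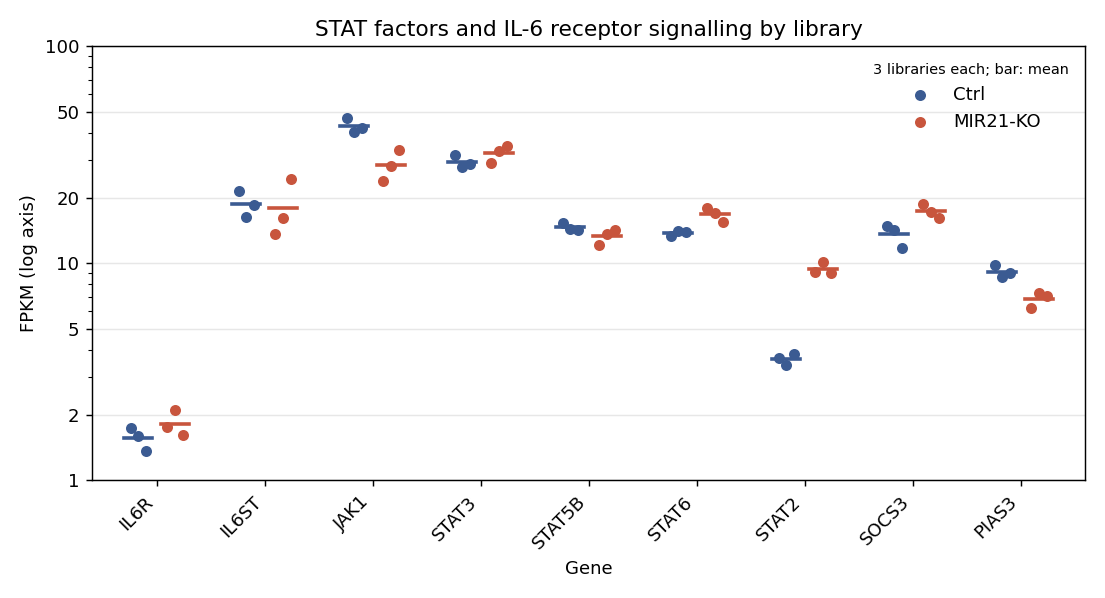
FPKM (log axis) of the 9 genes in each of 3 Ctrl (blue) and 3 MIR21-KO (red) libraries, with bars at the group means. STAT2 lies at 3.41 to 3.83 in Ctrl and 9.04 to 10.1 in MIR21-KO libraries, JAK1 is lower in every MIR21-KO library, and STAT3 overlaps between the groups.

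The receptor chains did not pass the threshold. IL6R (ENSG00000160712, chr1:154405193-154469450, plus strand), the ligand-binding chain, was at 1.74, 1.60 and 1.36 FPKM in Ctrl replicates 1 to 3 and at 1.76, 2.10 and 1.61 FPKM in MIR21-KO replicates 1 to 3. It was the least abundant of the 9 genes, with 111 to 166 reads per library, and its groups overlapped. The log2 fold change was 0.21 (SE 0.17, 95% CI -0.19 to 0.60, limma FDR 0.381), and it was 0.11 without Ctrl replicate 3 and 0.11 without MIR21-KO replicate 2.

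IL6ST (ENSG00000134352, chr5:55935095-55994993, minus strand), the gp130 chain, was at 21.5, 16.4 and 18.6 FPKM in Ctrl and at 13.6, 16.1 and 24.4 FPKM in MIR21-KO libraries. The MIR21-KO values enclosed the Ctrl range on both sides. Its log2 fold change was -0.10 (SE 0.22, 95% CI -0.62 to 0.43, limma FDR 0.767). The direction was not stable, since the change was 0.08 without MIR21-KO replicate 1, -0.34 without MIR21-KO replicate 3, and 0.06 once trends on GC content and gene length had been removed from every library. IL6ST has a GC content of 36.6%, and its order among the MIR21-KO libraries was that of low-GC genes in general. The part of this trend in its spread was tested only by that removal. An antisense gene shares 797 exon bases with IL6ST, and whether counting used strand is not given in the sources used here. The log2 ratio of IL6ST to IL6R was 3.5 ± 0.2 (SD, n = 3) in Ctrl and 3.2 ± 0.56 (SD, n = 3) in MIR21-KO cells, a difference of -0.31 (two-sided exact permutation test p = 0.4, 0.4 after adjustment over 2 ratios; the smallest p possible is 0.1).

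JAK1 (ENSG00000162434, chr1:64833229-64966504, minus strand), the kinase bound to gp130, was at 46.7, 40.4 and 42.0 FPKM in Ctrl and at 23.9, 28.0 and 33.3 FPKM in MIR21-KO libraries. Each MIR21-KO library lay below each Ctrl library. The log2 fold change was -0.61 (SE 0.13, 95% CI -0.92 to -0.29), with a limma FDR of 0.0141 that misses the threshold of 0.01. JAK1 was past it without MIR21-KO replicate 3 (log2 fold change -0.73, FDR 0.00309), with voom on reads (FDR 0.00359), among protein-coding genes only (FDR 0.00515) and after removal of GC and length trends (-0.59, FDR 0.00269). Leaving out another library gave FDRs of 0.0184 to 0.0576. JAK1 holds no miR-21-5p seed match in its annotated 3′ UTR of 1333 bases.

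STAT3 (ENSG00000168610, chr17:42313324-42388568, minus strand), the factor that transcribes MIR21, was at 31.6, 27.8 and 28.8 FPKM in Ctrl and at 29.1, 32.9 and 34.9 FPKM in MIR21-KO libraries. The groups overlapped, and 2 of the 3 MIR21-KO libraries lay above all Ctrl libraries. The log2 fold change of 0.13 (SE 0.094, 95% CI -0.09 to 0.36, limma FDR 0.317) did not pass the test at 2639 to 3991 reads per library. Without MIR21-KO replicate 1 the change was 0.21 (FDR 0.111), and without replicate 3 it was 0.08. For this mRNA, which carries a pair of 7mer matches, the interval allows a small change in either direction.

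STAT2 (ENSG00000170581, chr12:56341597-56360155, minus strand), the interferon-receptor factor, was at 3.66, 3.41 and 3.83 FPKM in Ctrl and at 9.08, 10.1 and 9.04 FPKM in MIR21-KO libraries. The groups were far apart relative to their spread, with means of 3.63 ± 0.212 and 9.40 ± 0.583 FPKM (SD, n = 3 each), a ratio of 2.58. The log2 fold change was 1.35 (SE 0.092, 95% CI 1.13 to 1.57, limma FDR 0.000202) from 224 to 756 reads per library. STAT2 was called under every alternative tried, with FDRs up to 0.00479, and its log2 fold change stayed between 1.30 and 1.38 when single libraries were left out. Its only seed match is the 6mer shown above, at position 630 of a 3′ UTR of 679 bases.

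STAT6 (ENSG00000166888, chr12:57095408-57132139, minus strand), the IL-4 and IL-13 factor, was at 13.3, 14.1 and 13.9 FPKM in Ctrl and at 17.9, 17.1 and 15.5 FPKM in MIR21-KO libraries. Every MIR21-KO library was above every Ctrl library, by a log2 fold change of 0.29 (SE 0.080, 95% CI 0.10 to 0.48, limma FDR 0.0333). It was past the threshold only without MIR21-KO replicate 3 (log2 fold change 0.35, FDR 0.00847) among the alternatives that kept an FDR of 0.01. STAT6 has a GC content of 56.1%, and removal of GC and length trends lowered its log2 fold change to 0.20 (limma FDR 0.0388). With a replicate block the FDR was 0.114. STAT6 shares 69 exon bases with NAB2 and 59 with LRP1, both on the opposite strand.

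STAT5B (ENSG00000173757, chr17:42199168-42276707, minus strand) was at 15.3, 14.4 and 14.2 FPKM in Ctrl and at 12.2, 13.7 and 14.3 FPKM in MIR21-KO libraries. The groups overlapped through MIR21-KO replicate 3, and the log2 fold change was -0.13 (SE 0.084, 95% CI -0.33 to 0.08, limma FDR 0.299), or -0.06 without MIR21-KO replicate 1. Its close paralog STAT5A, the neighbouring gene with overlapping functions, was at 1.68 to 2.64 FPKM in Ctrl and at 3.26 to 3.97 FPKM in MIR21-KO libraries, a log2 fold change of 0.82 (limma FDR 0.0199, not called). How reads shared by the paralogs were counted is not given in the sources used here.

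Neither inhibitor was called, and their changes had opposite directions. SOCS3 (ENSG00000184557, chr17:78356778-78360077, minus strand), which is induced by STAT3 and shuts off gp130 signalling, was at 14.8, 14.2 and 11.8 FPKM in Ctrl and at 18.8, 17.3 and 16.1 FPKM in MIR21-KO libraries. The groups did not overlap, and the log2 fold change was 0.36 (SE 0.11, 95% CI 0.09 to 0.62, limma FDR 0.0490). Without Ctrl replicate 3, its lowest library, the change was 0.26 (FDR 0.139). SOCS3 has a GC content of 60.0%, and it was highest in the MIR21-KO replicate in which high-GC genes were highest. The share of that trend in the difference between groups was not tested beyond its removal, which lowered the log2 fold change of SOCS3 to 0.23 (FDR 0.145). The log2 ratio of SOCS3 to STAT3 was -1.11 ± 0.16 (SD, n = 3) in Ctrl and -0.89 ± 0.24 (SD, n = 3) in MIR21-KO cells, a difference of 0.22 (two-sided exact permutation test p = 0.3, adjusted p = 0.4).

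PIAS3 (ENSG00000131788, chr1:145848522-145859836, minus strand), the inhibitor that binds activated STAT3, was at 9.78, 8.61 and 9.01 FPKM in Ctrl and at 6.25, 7.33 and 7.06 FPKM in MIR21-KO libraries. All MIR21-KO libraries were lower, with a log2 fold change of -0.41 (SE 0.096, 95% CI -0.63 to -0.18, limma FDR 0.0194). PIAS3 shares 432 exon bases with NUDT17 on the opposite strand. The difference missed the threshold of 0.01 under every alternative, with a lowest FDR of 0.0101.

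**Figure D2:**
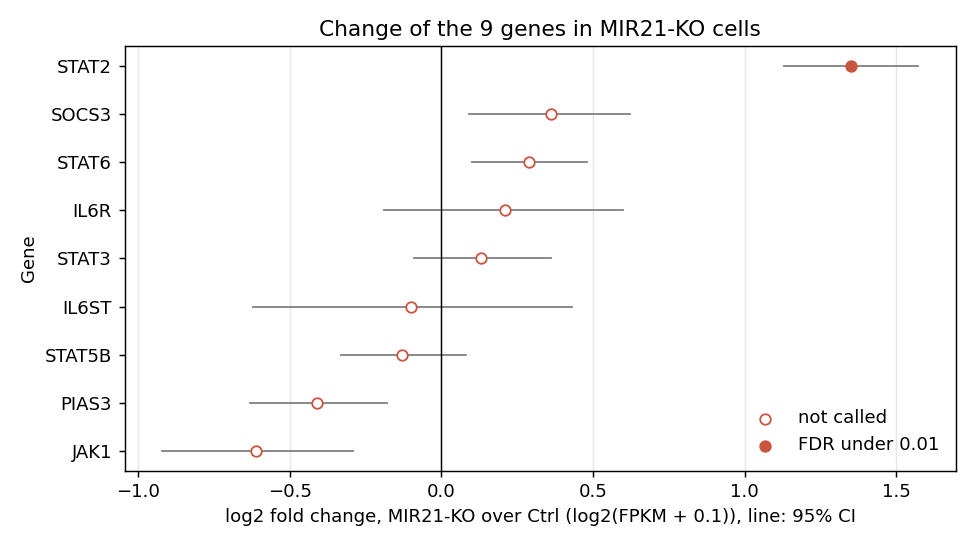
Log2 fold change (MIR21-KO over Ctrl, on log2(FPKM + 0.1)) of the 9 genes with 95% confidence intervals from limma, filled where the FDR was under 0.01. STAT2 at 1.35 stands apart from the other genes, which lie between -0.61 (JAK1) and 0.36 (SOCS3).

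Since FPKM is scaled to gene length, the levels of the 9 mRNAs could be ordered. In Ctrl cells the order of mean FPKM was JAK1 (43.0), STAT3 (29.4), IL6ST (18.8), STAT5B (14.6), STAT6 (13.8), SOCS3 (13.6), PIAS3 (9.13), STAT2 (3.63) and IL6R (1.57), and among neighbours only STAT6 and SOCS3 had overlapping ranges. In MIR21-KO cells STAT3 (32.3) and JAK1 (28.4) overlapped, as did each next pair down to IL6ST (18.0), SOCS3 (17.4) and STAT6 (16.9). Below these, STAT5B (13.4), STAT2 (9.40), PIAS3 (6.88) and IL6R (1.83) followed without overlap between neighbours. STAT2 and PIAS3 had thus exchanged places. Beyond neighbours, STAT5B overlapped with SOCS3 in Ctrl (14.2 to 15.3 against 11.8 to 14.8 FPKM). It also overlapped with IL6ST in MIR21-KO libraries (12.2 to 14.3 against 13.6 to 24.4 FPKM). The ranges cover the spread between libraries, not differences in measurement between genes, so the order of close genes is not settled.

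Over the 6 libraries, the log2 values most similar to those of STAT3 among the 7550 genes that averaged 5 FPKM or more were those of GALNT10 (Pearson r = 0.9921), an enzyme of protein glycosylation, ZKSCAN1 (0.9914), a zinc-finger protein, and MPRIP (0.9905), which binds myosin phosphatase and RhoA. The 6 points share libraries and both groups of cells, and the best of 7550 correlations is high by selection. None of these genes was called, with limma FDRs of 0.168 to 0.315.

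To place the 9 genes in their pathway, lists of related genes were counted in the same way. Over all 16006 tested genes limma called 16.0% and voom called 3525. At least 32.0% of all tested genes had an unadjusted p under 0.05, since that share had an FDR under 0.05. The full share was not counted and is higher, since genes with a larger FDR also had such a p, as PIAS4 did (limma p 0.0483, FDR 0.113). Counts of genes at that p are therefore not read as an excess. Among the STAT genes considered 1 of 6 was called by limma, namely STAT2, 4 had an unadjusted p under 0.05, and voom called STAT2 and STAT5A. STAT4, which serves IL-12, was at 1.16 to 1.67 FPKM in Ctrl and at 0.826 to 0.943 FPKM in MIR21-KO libraries (log2 fold change -0.69, limma FDR 0.0371, not called). Of 3 tested JAK kinases none was called by limma, JAK1 having the lowest FDR and being the one JAK gene with an unadjusted p under 0.05 and a call by voom. TYK2, which serves both gp130 and the interferon receptor, was at 7.38 to 7.46 FPKM in Ctrl and 6.43 to 7.68 FPKM in MIR21-KO libraries. Of 7 tested SOCS genes 1 was called, by limma and by voom, and 5 had an unadjusted p under 0.05. The called gene, SOCS2, an inhibitor of growth hormone signalling, was at 3.07, 2.88 and 3.27 FPKM in Ctrl and at 4.58, 5.18 and 5.03 FPKM in MIR21-KO libraries (log2 fold change 0.66, limma FDR 0.00409). SOCS5 was at 7.42 to 7.77 FPKM in Ctrl and at 9.61 to 13.9 FPKM in MIR21-KO libraries (0.55, FDR 0.0242) and SOCS1 at 0.321 to 0.776 and 1.0 to 1.5 FPKM (0.97, FDR 0.0714). SOCS4 went the other way, at 7.29 to 8.95 FPKM in Ctrl and 3.39 to 6.6 FPKM in MIR21-KO libraries (-0.71, FDR 0.0599). SOCS5, SOCS1 and SOCS4 were all uncalled and without overlap between the groups, as were the groups for 48.1% of all tested genes. All 4 PIAS genes had negative changes, with a median of -0.36, and none was called by limma or voom, although 3 had an unadjusted p under 0.05. None of the 6 tested phosphatases and adaptors was called by limma or voom either, and 4 had an unadjusted p under 0.05, among them GRB2, which links receptors to Ras, with a log2 fold change of -0.32 (limma FDR 0.0336). Of the proteases that shed IL6R, ADAM17 had a change of -0.15 (FDR 0.416) and ADAM10 of -0.60 (FDR 0.0175), so that neither was called by limma. ADAM10 alone had an unadjusted p under 0.05 and was called by voom.

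Ligands of gp130 were then examined. Of 9 listed ligand genes 5 were tested, and 2 of them rose while none fell, with a median log2 fold change of 0.19. Over all tested genes 7.66% rose and 8.38% fell, with a median of -0.017. IL11, a gp130 cytokine, was at 20.4, 22.0 and 21.6 FPKM in Ctrl and at 85.7, 81.6 and 69.5 FPKM in MIR21-KO libraries. This 3.70-fold difference of the means (log2 fold change 1.88, SE 0.096, limma FDR 7.88e-05) made IL11 the most abundant ligand mRNA in MIR21-KO cells. IL6 was at 1.14, 1.62 and 1.24 FPKM in Ctrl and at 5.85, 6.91 and 6.45 FPKM in MIR21-KO libraries, from 30 to 175 reads (log2 fold change 2.19, SE 0.16, limma FDR 0.000237). IL6 shares 428 exon bases with an antisense gene of 0.337 FPKM. These calls held under every alternative, with FDRs up to 0.00337.

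LIF, which also signals through gp130, was at 23.6 to 24.6 FPKM in Ctrl and at 22.6 to 26.8 FPKM in MIR21-KO libraries, and its log2 fold change of 0.02 had a 95% CI of -0.18 to 0.22. Among 6 tested receptor chains, IL11RA, the IL-11 binding chain, rose. It was at 0.699, 1.0 and 0.805 FPKM in Ctrl and at 2.73, 2.26 and 2.11 FPKM in MIR21-KO libraries (log2 fold change 1.40, limma FDR 0.00245). OSMR, the oncostatin M chain, had a change of -0.17 (FDR 0.402). The 3′ UTRs of IL6 and IL11 hold no seed match of miR-21-5p. The calls of SOCS2 and IL11RA were lost with fewer libraries, at log2 fold changes of 0.62 to 0.72 and 1.30 to 1.53. Without Ctrl replicate 1, Ctrl replicate 3 or MIR21-KO replicate 2, FDRs were 0.0214, 0.0169 and 0.0278 for SOCS2 and 0.0122, 0.0144 and 0.0163 for IL11RA. SOCS2 was also uncalled without Ctrl replicate 2 (FDR 0.0208).

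**Figure D3:**
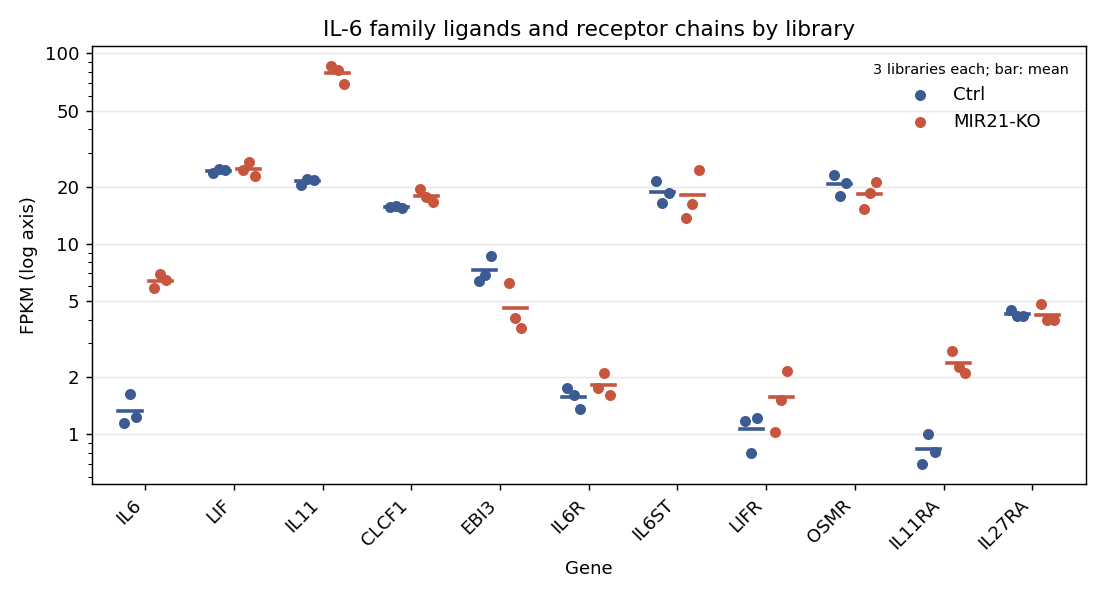
FPKM (log axis) of the tested IL-6 family ligand and receptor genes in 3 Ctrl (blue) and 3 MIR21-KO (red) libraries, with bars at the group means. IL6, IL11 and IL11RA are higher in every MIR21-KO library, whereas LIF, OSMR, IL6R and IL6ST overlap between the groups.

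Genes commonly listed as targets of STAT3 were found changed in both directions. Of 22 tested, 5 rose, 3 fell and 14 were not called, with a median log2 fold change of 0.38. Among the uncalled genes, FOS passed the filter through its level in MIR21-KO cells, with means of 0.368 FPKM in Ctrl and 0.797 FPKM in MIR21-KO libraries. Over all tested genes 7.66% rose and 8.38% fell, with a median of -0.017. VEGFA, an angiogenic growth factor, was at 3.01, 3.06 and 3.05 FPKM in Ctrl and at 7.99, 8.88 and 9.09 FPKM in MIR21-KO libraries (log2 fold change 1.48, limma FDR 0.000138). CCND1, the G1 cyclin D1, was at 81.9, 75.9 and 78.1 FPKM in Ctrl and at 25.0, 27.3 and 27.9 FPKM in MIR21-KO libraries (log2 fold change -1.55, limma FDR 6.4e-05). BCL2L1, which encodes the survival factor BCL-xL, was at 87.3, 84.1 and 86.9 FPKM in Ctrl and at 46.3, 45.1 and 38.0 FPKM in MIR21-KO libraries (log2 fold change -1.0, limma FDR 0.000622). The third gene of the list that fell was BIRC5, a mitotic and anti-apoptotic protein (log2 fold change -0.65, limma FDR 0.00542).

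The other genes of the list that rose were VMP1, BCL6, JUNB and BCL3. VMP1, an autophagy gene whose last exon holds MIR21, was at 70.7, 76.8 and 77.8 FPKM in Ctrl and at 135, 144 and 149 FPKM in MIR21-KO libraries (log2 fold change 0.92, limma FDR 0.000473). The 72 bases of MIR21 lie within a VMP1 exon, so the edited locus overlaps the sequence that was counted. The transcriptional repressor BCL6 and the AP-1 subunit JUNB had log2 fold changes of 1.32 and 1.12 (limma FDRs 0.00239 and 0.000656), and BCL3, an NF-kB cofactor, of 0.81 (FDR 0.00305). TIMP1, the most abundant uncalled gene of the list, was at 75.8 to 84.0 FPKM in Ctrl and at 147, 116 and 87.7 FPKM in MIR21-KO replicates 1 to 3 (log2 fold change 0.53, limma FDR 0.0673), and MYC had a change of 0.02. Calls of BCL3, BCL6 and BIRC5 were lost without Ctrl replicate 2, Ctrl replicate 3 or MIR21-KO replicate 2, with FDRs up to 0.0192, 0.0142 and 0.0318, and those of BCL3 and BIRC5 also without Ctrl replicate 1 (0.0175 and 0.0225).

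**Figure D4:**
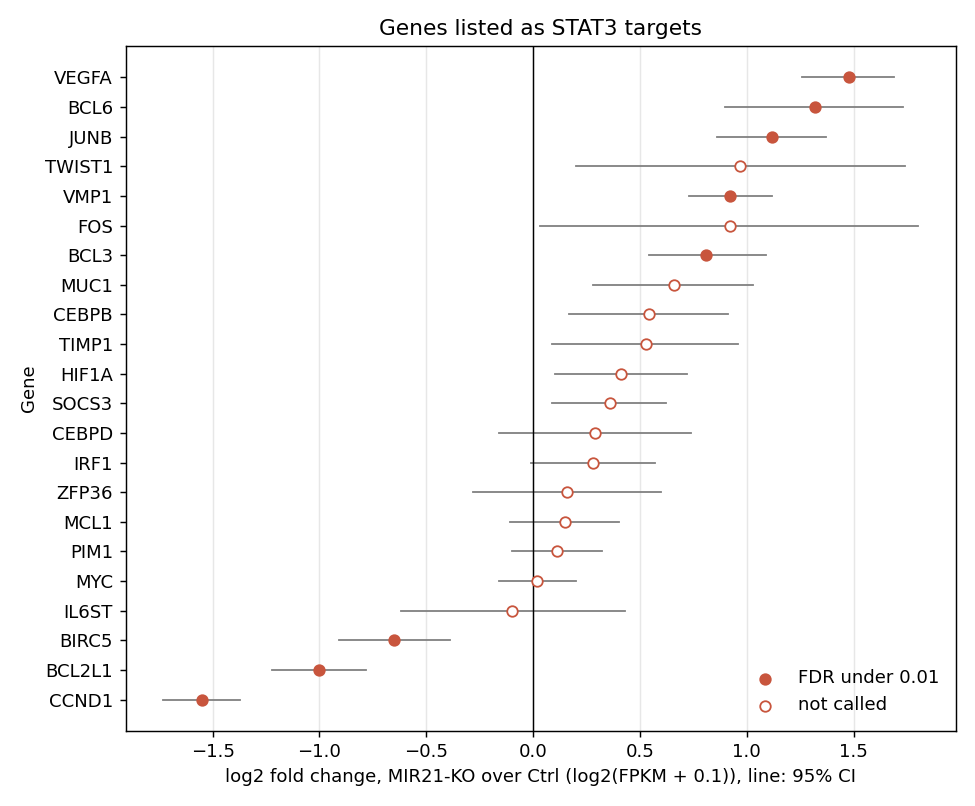
Log2 fold change (MIR21-KO over Ctrl, on log2(FPKM + 0.1)) of 22 tested genes listed as STAT3 targets, with 95% confidence intervals from limma, filled where the FDR was under 0.01. VEGFA, BCL6, JUNB, VMP1 and BCL3 lie to the right of 0, CCND1, BCL2L1 and BIRC5 to the left, and the remaining 14 genes were not called.

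Acute phase genes, the classical IL-6 response of liver, were mostly below the filter, and 4 of 16 were tested. LBP, which binds bacterial lipopolysaccharide, rose from 0.284 to 0.401 FPKM in Ctrl to 1.58 to 2.55 FPKM in MIR21-KO libraries (log2 fold change 2.18, limma FDR 0.00139), and it passed the filter through its level in MIR21-KO cells. C3, the central complement component and the most abundant of the list, had a change of 0.07 (FDR 0.499).

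Since STAT2 was the one member called at an FDR under 0.01, its partners and the genes served by ISGF3 were described next. IFNAR2, a chain of the type I interferon receptor, fell by 0.50 on the log2 scale, from 7.48 to 7.70 FPKM in Ctrl to 5.25 to 5.43 FPKM in MIR21-KO libraries (limma FDR 0.00364). IRF9, the DNA-binding partner, was below the filter with 0.207, 0.343 and 0.308 FPKM in Ctrl and 0.735, 0.517 and 0.671 FPKM in MIR21-KO libraries, from 10 to 38 reads, and was not tested. IFNGR1, a chain of the interferon gamma receptor, had a change of 0.05 (FDR 0.638).

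Of 20 genes listed as ISGF3 targets 13 were tested, of which 4 rose, none fell and 9 were not called by limma, with a median log2 fold change of 0.72. Of the 13, 10 had an unadjusted p under 0.05, which at least 32.0% of all tested genes had, itself a lower bound. These 10 include IRF7, with means of 0.443 FPKM in Ctrl and 1.34 FPKM in MIR21-KO libraries. IRF7 passed the filter through its level in MIR21-KO cells, so its place in the count and in the median is no independent support. Voom called 6 of the 13, and 3525 of all 16006 genes. Over all tested genes 7.66% rose and 8.38% fell by limma. OASL, an antiviral protein, was at 0.469, 0.714 and 0.541 FPKM in Ctrl and at 2.53, 2.86 and 2.67 FPKM in MIR21-KO libraries (log2 fold change 2.06, limma FDR 0.000568). IFI44 was at 0.964, 0.319 and 1.26 FPKM in Ctrl and at 5.69, 6.69 and 5.94 FPKM in MIR21-KO libraries (2.87, FDR 0.00326), with as few as 7 reads in a Ctrl library. ISG15, a ubiquitin-like protein, was at 5.25, 6.51 and 8.93 FPKM in Ctrl and at 20.6, 17.3 and 13.4 FPKM in MIR21-KO libraries (1.31, FDR 0.00633). IFI6 was at 7.08, 10.0 and 9.04 FPKM in Ctrl and at 27.0, 24.1 and 16.4 FPKM in MIR21-KO libraries (1.34, FDR 0.00437). Other listed genes did not follow, such as EIF2AK2, the kinase PKR, at -0.15 (FDR 0.599), OAS3 at -0.43 (FDR 0.0199) and USP18 at -0.59 (FDR 0.0459). OAS3 and USP18, both lower in MIR21-KO libraries, are among the genes counted above with an unadjusted p under 0.05.

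The call of OASL held under every alternative. Those of the other 3 genes and of IFNAR2 did not: all 4 were uncalled without Ctrl replicate 1 (FDRs 0.0129 for IFI44, 0.0194 for IFI6, 0.0228 for ISG15 and 0.0221 for IFNAR2) and without MIR21-KO replicate 2 (0.0207, 0.0252, 0.0318 and 0.0222). IFI6, ISG15 and IFNAR2 were also uncalled without Ctrl replicate 2 (0.0137, 0.0274 and 0.0216), IFI6 and IFNAR2 without Ctrl replicate 3 (0.0197 and 0.0221), and ISG15 without MIR21-KO replicate 1 (0.0141).

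**Figure D5:**
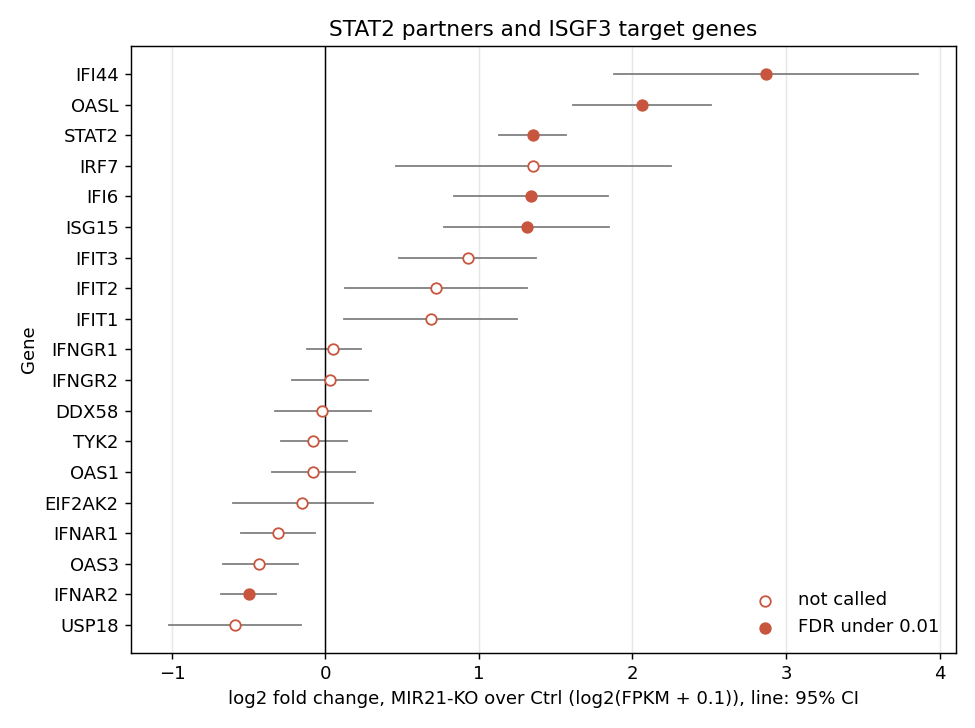
Log2 fold change (MIR21-KO over Ctrl, on log2(FPKM + 0.1)) of tested STAT2 partners and ISGF3 target genes, with 95% confidence intervals from limma, filled where the FDR was under 0.01. IFI44, OASL, STAT2, IFI6 and ISG15 are higher and IFNAR2 is lower in MIR21-KO cells, while TYK2 and both chains of the interferon gamma receptor lie near 0.

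Promoters were searched for the motifs these factors bind, in RefSeq windows (GRCh38.p14) from 250 bases before to 50 after each start site, on both strands. The STAT motif TTCNNNGAA was found in 7.66% of 35116 windows, and the ISGF3 motif (ISRE: GAAA, any 2 bases, GAAA), chosen after expression values were seen, in 3.57%. None of the 12 windows of the 9 genes held either. The windows of SOCS3, PIAS3, STAT6 and STAT5B do not include the first base of the gene in GENCODE. For these genes the sequence at that start was not searched, so a motif there would have been missed. Of 16 STAT3 target genes with a window, over 22 windows, 3 held the STAT motif. Of the 13 ISGF3 target genes with a window, over 18 windows, 12 held the ISRE motif. These genes are listed as targets of the complex that binds this motif, so that count is no independent support. Stretches of 50 bases from 3 of the genes that rose are shown, with bases of the motif or of its reverse complement in capitals:
ISG15 (GRCh38.p14, chr1:1013370-1013419, plus strand): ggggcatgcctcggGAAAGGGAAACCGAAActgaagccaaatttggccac
IFI6 (GRCh38.p14, chr1:27672256-27672305, minus strand): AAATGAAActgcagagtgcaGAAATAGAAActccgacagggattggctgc
IFI44 (GRCh38.p14, chr1:78649751-78649800, plus strand): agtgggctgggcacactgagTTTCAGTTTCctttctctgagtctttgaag

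In ISG15 a pair of overlapping matches forms one run, and in IFI6 the first match begins before the stretch. EIF2AK2 and OAS3, which were not called, hold the motif as well.

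For STAT6, the receptor chain IL4R rose, at 6.90, 6.52 and 6.05 FPKM in Ctrl and 10.7, 11.3 and 9.60 FPKM in MIR21-KO libraries (log2 fold change 0.69, limma FDR 0.00273). Its partner IL13RA1 had a change of -0.21 (FDR 0.106). The call of IL4R did not hold when Ctrl replicate 1, 2 or 3 (FDRs 0.0118, 0.0156 and 0.017) or MIR21-KO replicate 2 (0.0188) was left out. For STAT5B, 3 of 8 listed receptors and targets were tested. The erythropoietin receptor EPOR had a change of 0.43 (FDR 0.157), and the called genes were SOCS2 and BCL2L1, given above.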

How the data were processed

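PolyA RNA-seq of 6 A549 libraries was analysed, grouped by sample titles. The authors deposited FPKM per gene. The submitters' processing notes name hg38, cutadapt 1.14, HISAT2 2.1.0, SAMtools 1.5, featureCounts 1.5.3 and edgeR 3.18.1, and the annotation release and strand setting are not given in the sources used here. The table also holds the authors' own fold changes and p-values, which were not used. FPKM times gene length gave whole reads (within 0.01) for 100% of values. The implied library sizes were 0.9497 to 1.0304 times the read totals. The precision of each value is that of the reads given beside it, and 3 reads on a gene of 1 kb are worth 0.2193 to 0.2789 FPKM.

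Genes averaging 0.5 FPKM or more entered a two-sided test by limma 3.58.1 (R 4.3.3) of log2(FPKM + 0.1) (eBayes with trend and robust fitting, no covariate), which understates changes of low genes. P-values were adjusted by Benjamini-Hochberg over 16006 genes and called at an FDR under 0.01. On simulated data of 16006 genes with 200 changed 2-fold, 181 were recovered with 5 false calls (voom on reads, 200 with 1). The changed genes were drawn from well-covered genes, with a single dispersion for all genes and no GC trend. These figures therefore do not describe genes with few reads or the GC trends of the real libraries. Alternatives were other pseudocounts, filters, scalings, voom on recovered reads, no trend, protein-coding genes only, an FDR of 0.05, a replicate block, removal of GC and length trends, and leaving out each library.

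The 9 genes and all lists were chosen with earlier results of these data known. A few genes of the lists are not reported here and were left out of the list counts. Named were the 9 genes, MIR21, VMP1, of each list the called genes (at most 4, by p) and the uncalled gene of highest mean, and the 3 genes most similar to STAT3. STAT4, STAT5A, SOCS1, SOCS4, SOCS5, PIAS4, TYK2, ADAM10, IRF7, IRF9, OAS3, USP18, FOS, MYC, JUNB, BCL3, BCL6, BIRC5, EPCAM, CD3E and COL1A2 were named where the account called for them, after their values were seen. 3′ UTRs and coordinates were those of GENCODE on GRCh38. Same-numbered libraries did not deviate together (correlations -0.505, -0.008 and -0.099 over 7551 genes). Plots were made in Python 3.11.15 with matplotlib 3.10.9.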

Additional observations from a re-analysis of the deposited data

How the results depend on the processing

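STAT2 was the one member called under every alternative, and directions of the other 8 held except for IL6ST, which turned to 0.06 with GC and length trends removed, 0.06 with the block as well, and 0.08 without MIR21-KO replicate 1; the cause was not tested. JAK1 passed the threshold with voom (log2 fold change -0.61), among protein-coding genes only (-0.61), with GC and length trends removed (-0.59) and without MIR21-KO replicate 3 (-0.73). With an FDR under 0.05, JAK1 (-0.61), PIAS3 (-0.41), STAT6 (0.29) and SOCS3 (0.36) passed. Across single-library omissions JAK1 lay between -0.73 and -0.49, STAT6 between 0.24 and 0.35, IL6ST between -0.34 and 0.08, IL6R between 0.11 and 0.29, STAT3 between 0.08 and 0.21, STAT5B between -0.17 and -0.06 and SOCS3 between 0.26 and 0.42. Members called numbered 1, and 2 (1 lower) with voom, protein-coding genes only or trends removed, 5 (3 higher, 2 lower) at an FDR under 0.05, and 1 to 3 (1 to 2 higher, 0 to 1 lower) with a library left out, 3 without MIR21-KO replicate 3.

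The pathway lists were chosen with earlier results of these data known. Against 16.0% of all tested genes (7.66% higher, 8.38% lower), 20 of the 83 tested pathway genes were called (16 higher, 4 lower). The count was 38 (14 lower) at an FDR under 0.05, 32 (12 lower) with trends removed, and 10 to 30 (8 to 21 higher, 2 to 9 lower) with a library left out (11, 13 and 12 without Ctrl replicate 1, 2 or 3, 10 without MIR21-KO replicate 2), and voom gave 7 lower. Over all genes 2568 were called (1226 higher, 1342 lower), 5114 (2428 higher, 2686 lower) at an FDR under 0.05, 3902 (2157 lower) with trends removed, and 768 to 3400 with a library left out (388 to 1599 higher, 368 to 1801 lower). The low counts were 895, 922 and 873 without Ctrl replicate 1, 2 or 3 and 768 without MIR21-KO replicate 2. Of called genes 47.7% were higher, against 53.2% with median-ratio scaling and 43.3% with total reads.

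Replicate numbers did not pair the libraries. A model with replicate block gave 651 calls over all genes (379 higher, 272 lower) and 10 among pathway genes (8 higher, 2 lower), and STAT2 was called (FDR 0.00479). With the block and trends removed, 800 of the called genes were higher.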
